A study of Bos taurus with 12 samples.

Results

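The 2 mature products of the bovine mir-455 hairpin, bta-miR-455-5p and bta-miR-455-3p, were followed in granulosa cells of subordinate and dominant ovarian follicles. They were the 2 entries, of 755 mature miRNA names counted in each library, whose name before the precursor was bta-miR-455-5p or bta-miR-455-3p. They were chosen by measured values, but the values used were not named. These were taken to be their high reads in dominant follicles at day 7. Every comparison of their levels that includes that group is therefore given as a description, without a p-value for the arms. All 12 libraries were made from granulosa cells of Simmental heifers whose cycles had all been synchronised with the prostaglandin analogue cloprostenol and the GnRH analogue buserelin. The 4 groups of 3 libraries were subordinate follicles (SF) and dominant follicles (DF) at day 3 of the oestrous cycle, and SF and DF at day 7. No further treatment separated the groups, and the age of the heifers was not given in the sources used here. SF and DF were set apart by follicle diameter alone, and the diameter limits differed between the days. Heifers slaughtered at day 3 and at day 7 were different animals. SF and DF of the same day came from the same set of heifers, so their libraries may share animals. The main tests treat these libraries as independent. The cells were the sediment of follicular fluid that had been combined by follicle size, so 1 library may hold cells of several follicles. DF at day 7 was the group with the fewest follicles. The paper counted 3 of them, as many as the group has libraries, while each other group had more follicles than libraries. Spread between libraries may therefore not mean the same in DF at day 7 as in the pooled groups. The labels call the libraries biological replicates without tying them to animals, and p-values measure the spread between these libraries.

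A miRNA gene is transcribed as a hairpin, whose stem is cut into a short duplex of a 5p and a 3p strand. One strand is usually loaded into an Argonaute protein, where it guides silencing of matching messenger RNAs, while the other is often degraded. miR-455 is one of the hairpins from which both strands have been studied as functional miRNAs. It is best known from cartilage, where it is expressed with the cartilage collagens, and from brown fat, where it promotes the brown adipocyte programme. Its gene lies within COL27A1, which encodes a fibrillar collagen of cartilage; in the RefSeq annotation of the bovine assembly ARS-UCD2.0, MIR455 falls inside the span of COL27A1. Granulosa cells line the follicle, nurse the oocyte and make oestradiol, and no established granulosa role of miR-455 is assumed here.

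Library totals ran from 160418 to 405129 reads assigned to miRNAs, with a median of 297448.5, and 3 reads correspond to between 0.000741% and 0.00187% of a library. miR-455 was a minor miRNA throughout. Its 2 arms received 258 reads in all 12 libraries together, which was 0.00759% of all reads. Of these reads, 74.4% came from the 3 DF day 7 libraries. Each arm is listed under a single precursor, so no reads were shared with a second hairpin copy, as happens for 73 other names. Normalized counts below are reads divided by a median-of-ratios size factor for each library.

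bta-miR-455-5p was the rarer arm and was near the lower limit of counting in most libraries. SF at day 3 had 3, 1 and 2 reads in replicates 1 to 3, or 2.67, 1.35 and 2.44 normalized counts. DF at day 3 had 1, 4 and 1 reads, or 0.751, 2.45 and 0.977 normalized counts. SF at day 7 had 1, 0 and 2 reads, or 0.891, 0 and 1.95 normalized counts. The ranges of these 3 groups overlapped, and 8 of their 9 libraries held no more than 3 reads of this arm. In DF at day 7, replicates 1 to 3 had 15, 3 and 24 reads, or 12.8, 4.99 and 21.6 normalized counts. All 3 DF day 7 libraries lay above the other 9 libraries, but the lowest of them, replicate 2, was also the smallest library of the series and rested on 3 reads. The mean of bta-miR-455-5p was 2.15 ± 0.710 (SD, n = 3) normalized counts in SF at day 3, 1.39 ± 0.920 in DF at day 3, 0.947 ± 0.976 in SF at day 7 and 13.1 ± 8.31 in DF at day 7. In order of level, DF at day 7 came first, followed by SF at day 3, DF at day 3 and SF at day 7. Neighbours among the last 3 groups differed by less than the larger of their SDs. The SD of DF at day 7 was large against its mean because replicate 2 was well below replicates 1 and 3.

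bta-miR-455-3p was more abundant and its DF day 7 libraries were closer to each other. In SF at day 3 it had 6, 2 and 2 reads, or 5.35, 2.69 and 2.44 normalized counts. In DF at day 3 it had 10, 6 and 7 reads, or 7.51, 3.67 and 6.84 normalized counts. In SF at day 7 it had 5, 9 and 4 reads, or 4.46, 9.10 and 3.90 normalized counts. The ranges of these 3 groups overlapped each other. In DF at day 7 it had 49, 34 and 67 reads, or 41.9, 56.6 and 60.3 normalized counts. The lowest of these was several times the highest value in any other library, which was SF day 7 replicate 2. Group means were 3.49 ± 1.61 (SD, n = 3) normalized counts in SF at day 3, 6.01 ± 2.05 in DF at day 3, 5.82 ± 2.86 in SF at day 7 and 52.9 ± 9.72 in DF at day 7. The order was DF at day 7, DF at day 3, SF at day 7 and SF at day 3. DF at day 3 and SF at day 7 differed by far less than their SDs, and SF at day 3 lay below SF at day 7 by less than the SD of SF at day 7. The low place of replicate 2 for the 5p arm in DF at day 7 was not shared by the 3p arm, for which replicate 2 was the middle value.

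**Figure D1:**
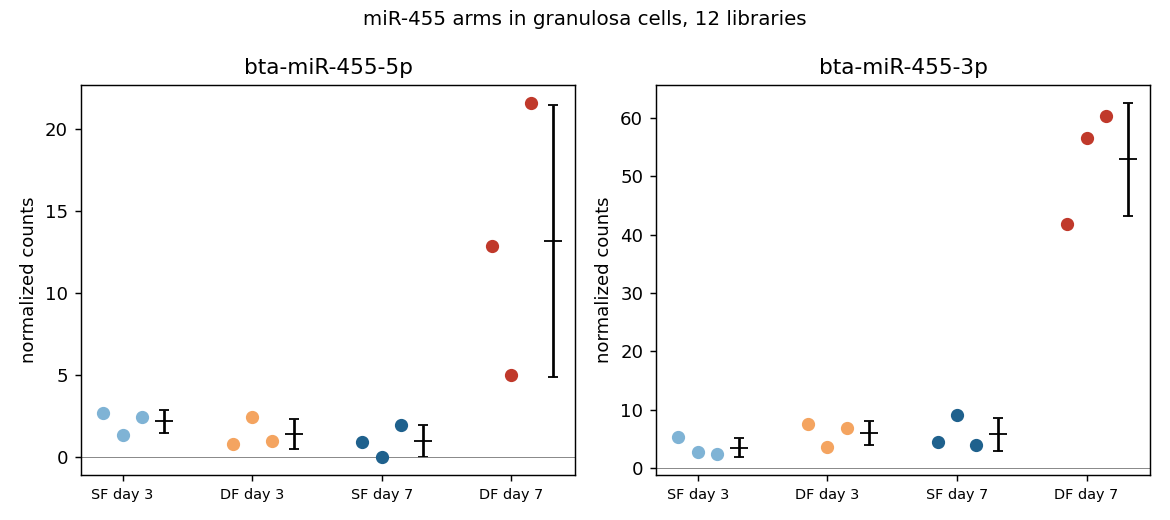
Normalized counts (y axis, linear) of bta-miR-455-5p (left) and bta-miR-455-3p (right) in each of the 12 libraries by group (x axis); points are libraries, the horizontal dash is the group mean and the bar its SD (n = 3). The DF day 7 libraries lie at 4.99 to 21.6 for the 5p arm and 41.9 to 60.3 for the 3p arm, above the other 9 libraries in each panel.

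Set against the other miRNAs of the same cells, both arms moved up the order of abundance in DF at day 7. bta-miR-455-3p was 129th of the 378 names with reads in DF at day 7, against 224th of 375 in SF at day 3, 198th of 386 in DF at day 3 and 200th of 400 in SF at day 7. bta-miR-455-5p was 178th in DF at day 7, against 250th in SF at day 3, 264th in DF at day 3 and 297th in SF at day 7.

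The comparison of SF with DF at day 7 asks which miRNAs accompany dominance. Both arms were higher in DF. The log2 fold change of SF over DF was -3.09 (SE 0.42, 95% interval -4.03 to -2.15) for bta-miR-455-3p and -3.60 (SE 0.82, 95% interval -5.43 to -1.76) for bta-miR-455-5p. Among the 350 miRNAs tested, these were the 24th and the 12th lowest values, and the median of all 350 was -0.05. In this comparison 117 miRNAs, or 33.4%, passed the thresholds for differential expression (2-fold or more in either direction, with p no higher than 0.05 and a false discovery rate no higher than 10%), and 64 of them, or 18.3%, were higher in DF. Groups did not overlap for 45.7% of the miRNAs tested, with DF higher for 23.1%, and both arms were among these. Because the arms were chosen with this comparison known, nothing is read from their being on that side. In bulk RNA such as this, a higher share of cells that carry a miRNA and more of it per cell cannot be told apart.

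The comparison of DF at day 7 with DF at day 3 follows the dominant follicle through the early luteal phase. Both arms were higher at day 7, with log2 fold changes of 3.13 (SE 0.39, 95% interval 2.29 to 3.96) for bta-miR-455-3p and 3.1 (SE 0.70, 95% interval 1.59 to 4.60) for bta-miR-455-5p. Their positions were 49th and 50th highest of 360 miRNAs tested, whose median was 0.05. Here 145 miRNAs, or 40.3%, passed the thresholds, of which 88 (24.4%) were higher at day 7. The groups did not overlap for 50.0% of miRNAs, with day 7 higher for 25.0%, and again both arms were among them. This comparison shares its DF day 7 libraries with that of SF and DF at day 7, so the values for the arms in them are not independent of each other.

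The other 2 comparisons were taken not to have entered the choice of miR-455, and neither arm passed the thresholds in them. Between SF and DF at day 3, the log2 fold change was 0.50 (SE 0.91, 95% interval -1.36 to 2.37) for bta-miR-455-5p, with an adjusted p of 0.820 in edgeR's quasi-likelihood test over all miRNAs. For bta-miR-455-3p it was -0.71 (SE 0.63, 95% interval -2.01 to 0.60), with an adjusted p of 0.554. The share of miRNAs that passed in this comparison was 5.67% (19 of 335). Between day 7 and day 3 in SF, the log2 fold change was -1.10 (SE 0.97, 95% interval -3.18 to 0.99, adjusted p = 0.836 in edgeR) for bta-miR-455-5p and 0.66 (SE 0.65, 95% interval -0.73 to 2.05, adjusted p = 0.886 in edgeR) for bta-miR-455-3p. In this comparison 0.593% of miRNAs passed (2 of 337). At a handful of reads per library these intervals are wide. No difference was detectable at this depth, and an equal level was not shown.

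**Figure D2:**
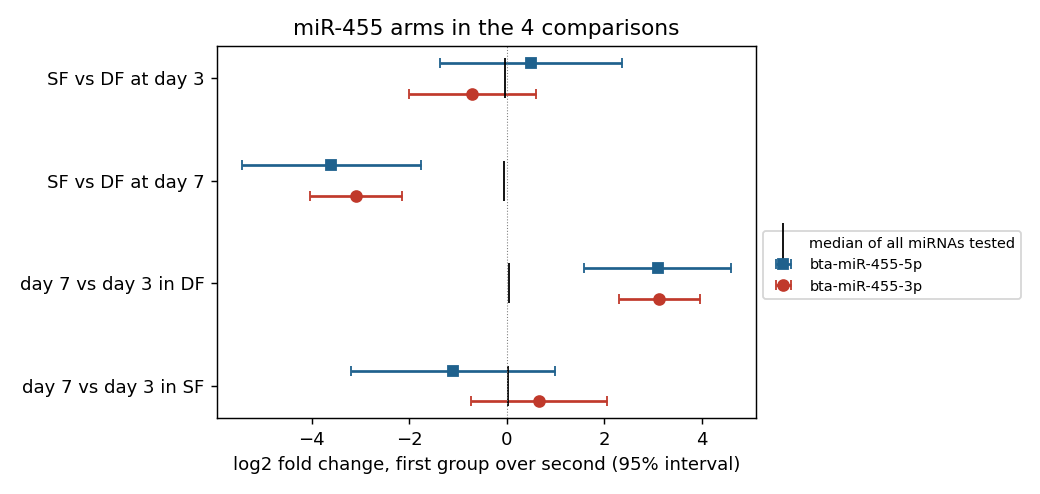
Log2 fold change of the first-named group over the second (x axis) with its 95% interval for bta-miR-455-5p (squares) and bta-miR-455-3p (circles) in the 4 comparisons (y axis); the short vertical line is the median of all miRNAs tested. The values are -3.60 and -3.09 for SF over DF at day 7 and 3.1 and 3.13 for day 7 over day 3 in DF, which use the group by which the arms were taken to be chosen, and they lie between -1.10 and 0.66, with intervals that include 0, in the other 2 comparisons.

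In a fit over all 12 libraries, the day 7 minus day 3 change in SF minus that in DF was -4.24 (SE 1.23, 95% interval -6.85 to -1.63) on the log2 scale for bta-miR-455-5p and -2.51 (SE 0.71, 95% interval -4.01 to -1.0) for bta-miR-455-3p. These values also contain the DF day 7 libraries and are a description.

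The reads behind these folds were also summed over each group, to show how far counting alone limits them. For bta-miR-455-3p, DF at day 7 held 150 reads against 18 in SF at day 7, a depth-scaled ratio of 9.07 with an exact 95% interval of 5.55 to 15.7. Against the 23 reads of DF at day 3 the ratio was 9.03 (5.80 to 14.7), and against the 10 reads of SF at day 3 it was 14.0 (7.39 to 29.7). For bta-miR-455-5p, 42 reads in DF at day 7 stood against 3 in SF at day 7, a ratio of 15.2 with a wide interval of 4.87 to 76.9. The ratios to DF at day 3 and SF at day 3, with 6 reads in each, were 9.69 (4.10 to 27.9) and 6.52 (2.76 to 18.8). Among the groups that exclude DF at day 7, the 5p ratio was 0.428 (0.0692 to 2.00) for SF at day 7 over SF at day 3, and 1.49 (0.398 to 5.56) for SF over DF at day 3. These exact intervals cover counting error only, since reads carry no molecular identifiers and replicates varied by more than counting.

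The balance of the arms was taken not to have been used to choose miR-455, and as a ratio within a library it needs no scaling between libraries. The 3p arm had at least as many reads as the 5p arm in all 12 libraries. Over all libraries 201 of 258 reads, or 77.9% (exact Clopper-Pearson 95% interval 72.3 to 82.8), were 3p, a ratio of 3.53 3p reads to each 5p read. By group, the 3p share was 62.5% (35.4 to 84.8) in SF at day 3 from 10 of 16 reads, 79.3% (60.3 to 92.0) in DF at day 3 from 23 of 29, 85.7% (63.7 to 97.0) in SF at day 7 from 18 of 21, and 78.1% (71.6 to 83.8) in DF at day 7 from 150 of 192. The intervals of the 4 groups overlap.

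By library, the 3p share was 66.7%, 66.7% and 50.0% in SF at day 3, and 90.9%, 60.0% and 87.5% in DF at day 3. In SF at day 7 it was 83.3%, 100% and 66.7%. DF at day 7 is the group in which single libraries give a usable share. It was 76.6% (64.3 to 86.2) in replicate 1, 91.9% (78.1 to 98.3) in replicate 2 and 73.6% (63.3 to 82.3) in replicate 3. Replicate 2 was the highest of these, and its interval overlapped those of both others.

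**Figure D3:**
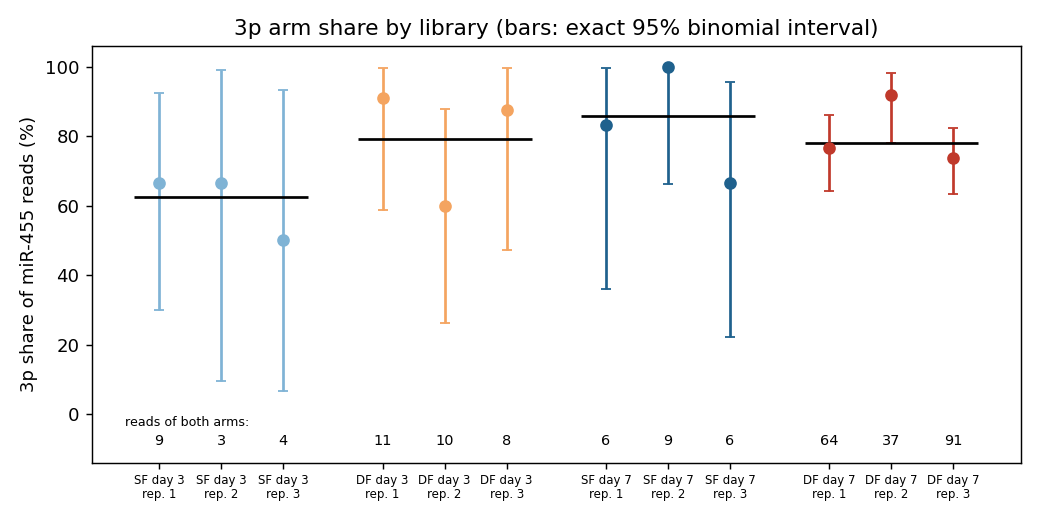
Share of miR-455 reads that came from the 3p arm (y axis, %) in each library (x axis), with exact 95% binomial intervals; horizontal bars give the share over the summed reads of each group, and the numbers below the points are the reads of both arms. The DF day 7 libraries, with 37 to 91 reads, lie at 73.6% to 91.9%, and the other 9 libraries, with 3 to 11 reads, have wide intervals.

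miR-455 had a mean of 21.5 reads of both arms per library but 7.33 in the 9 libraries without DF at day 7, so it met the minimum mean of 10 reads set for this comparison of arms only through the group in which it was high. An exact permutation test over all 15400 assignments of the 12 libraries to 4 groups found no difference in the log2 ratio of 3p to 5p (0.5 read added to each arm) across the groups (F = 1.37, p = 0.315). In limma, fitted to the 19 hairpins that met this minimum, the difference in this log2 ratio for miR-455 was -1.34 (SE 0.90, 95% interval -3.34 to 0.66, adjusted p = 0.483) for SF minus DF at day 3. It was 0.18 (SE 0.90, 95% interval -1.82 to 2.18, adjusted p = 0.895 in limma) for SF minus DF at day 7, and 0.26 (SE 0.90, 95% interval -1.74 to 2.26, adjusted p = 0.863 in limma) for day 7 minus day 3 in DF. In SF it was 1.78 (SE 0.90, 95% interval -0.22 to 3.78, adjusted p = 0.180 in limma). Two-sided exact permutation tests of each pair of groups gave p = 0.3, 0.8, 0.9 and 0.2 in the same order, where 0.1 is the smallest value that 3 against 3 libraries allow. The small differences at day 7 and in DF changed sign with the pseudocount or with single libraries left out, for example to -0.78 without SF day 7 replicate 2 and to -0.42 without DF day 3 replicate 2. While both arms were higher in DF at day 7, no difference in their ratio was detectable there, within intervals that together run from -1.82 to 2.26.

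Other hairpins differed in arm balance between groups of these bulk libraries. The part of the mix of cells in these differences was not tested. Where a mature name is listed under several precursors, the ratio may not be that of 1 hairpin alone. In limma, 52.6% of the 19 hairpins (10) differed between the days in DF at an adjusted p of at most 0.1, against 36.8% (7) between SF and DF at day 7, 21.1% (4) between the days in SF, and 0.0% (0) between SF and DF at day 3, where 2 had an unadjusted p of at most 0.05. With weights by read depth these counts were 9, 4, 3 and 0, and with a replicate block 8, 5, 4 and 0. miR-455 ranked 14th of 19 by the size of its difference in DF between the days, and 17th for SF against DF at day 7. It ranked 1st by size in the other 2 comparisons, in which its reads were fewest. Its interval in DF between the days, -1.74 to 2.26, was wide against the median absolute difference of 0.74 over the 19 hairpins. These ranks therefore cannot show that miR-455 kept its balance while other hairpins did not. It was 17th of the 19 hairpins in reads. mir-2411, with 131 reads, was the least counted of the 19 and had the largest difference in DF, -4.22 (SE 1.25, adjusted p = 0.0201 in limma), as its 3p share was 94.1% in DF at day 3 and 35.0% in DF at day 7. Its 5p arm had 17 reads over all 12 libraries, so these shares rest on few reads. mir-345, with 211 reads, was similar to miR-455 in depth and in share, at 81.6% to 85.0% 3p in the 4 groups, and differed by -0.24 in DF between the days (adjusted p = 0.810 in limma). Of the 19 hairpins, 7 had more 3p than 5p reads over all libraries, miR-455 among them. miR-455 was also among the 9 hairpins with a 3p share between 10% and 90%, those for which neither arm was nearly absent.

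**Figure D4:**
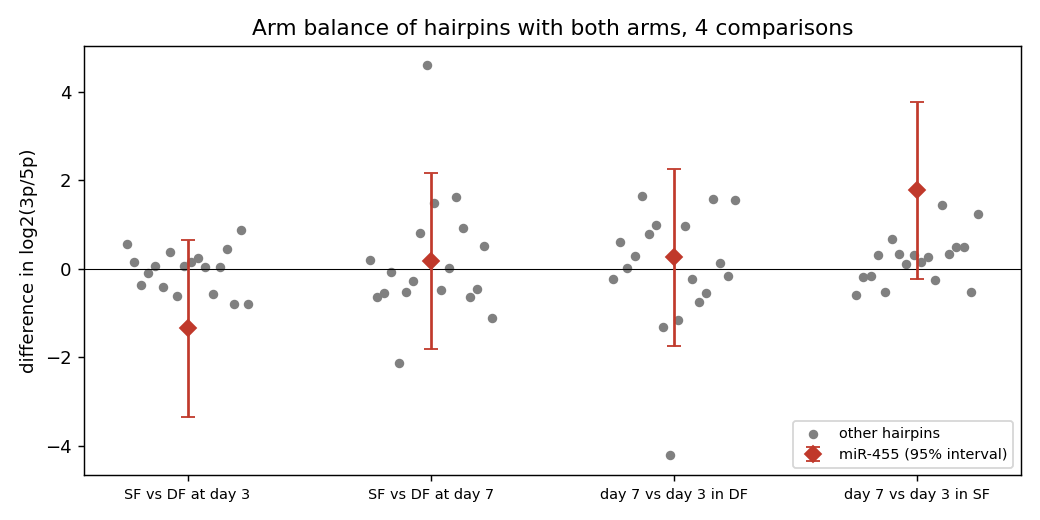
Difference in log2(3p/5p) (y axis) in the 4 comparisons (x axis) for miR-455 (diamond, with its 95% interval) and the other 18 hairpins (grey points, spread sideways for legibility). miR-455 sits near 0 for SF against DF at day 7 (0.18) and for the days in DF (0.26), and its interval includes 0 in all 4 comparisons.

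Both arms of a hairpin passing in the same direction was not the usual outcome. miR-455 is left out of these counts, since its arms were taken to be chosen with the comparisons concerned. Between SF and DF at day 7, both arms of 28 other hairpins were tested. Of these, 5 had both arms higher in DF (mir-142, mir-199a-1, mir-21, mir-22 and mir-365-1) and 1 had both higher in SF (mir-2483). In 1 the arms passed in opposite directions, 8 passed with 1 arm only and 13 passed with neither. The count with both arms higher in SF was 0 with TMM normalization, library size alone, no filter or the filter of 10 reads. It was also 0 without SF day 7 replicate 1 or 3 or DF day 7 replicate 1, and 2 without DF day 7 replicate 2 or in the fit of all 12 libraries. Of the arms higher in DF, miR-142-3p and miR-365-5p had means of only 3.94 and 6.22 normalized counts there. Between the days in DF, 7 of 31 other hairpins had both arms higher at day 7 and 1 had both lower. In 1 the arms passed in opposite directions, 11 passed with 1 arm only and 11 with neither. The 5 hairpins with both arms higher in DF than in SF at day 7 were among these 7. Both comparisons use the same DF day 7 libraries, so they are not independent.

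The miRNAs with levels most like those of each arm were taken as the 5 highest Pearson correlations of log2(normalized count + 1) over the 12 libraries, among 185 miRNAs with a mean of at least 10 normalized counts. For bta-miR-455-3p these were miR-28 (r = 0.964), miR-22-3p (0.936), miR-130b (0.935), miR-184 (0.934) and miR-24-3p (0.932). miR-28 had means of 41.6, 47.1, 48.7 and 172 normalized counts in SF day 3, DF day 3, SF day 7 and DF day 7, which is the same single high group at a higher level. For bta-miR-455-5p they were miR-1468 (0.912), miR-27b (0.895), miR-199a-5p (0.892), miR-103 (0.886) and miR-184 (0.863). The list for the 5p arm held miR-184 in common with that for the 3p arm. miR-184 had a mean of 134 in DF at day 7, and between 0 and 1.19 in the other groups. The 2 arms correlated with each other at r = 0.724 over the 12 libraries, which placed the 3p arm 25th for the 5p arm; the 5p arm, itself under the mean of 10 normalized counts, would stand 48th for the 3p arm. These values mostly restate the gap between DF at day 7 and the rest. Over the 9 libraries without DF at day 7, r fell to 0.643 for miR-28 with the 3p arm, 0.462 for miR-22-3p, 0.308 for miR-130b, 0.035 for miR-184 and 0.015 for miR-24-3p, while the 2 arms had r = -0.718 at 0 to 10 reads per library. For the 5p arm, miR-1468 kept r = 0.891 over those 9 libraries, where miR-27b had 0.490, miR-184 0.510, miR-199a-5p 0.379 and miR-103 -0.056. The libraries share their size factors, and few reads lie behind each value.

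The group in which miR-455 was high was also the group that stood apart in miRNAs known as markers of other cells. Granulosa markers (miR-202, miR-224 and miR-383) summed to between 2326 and 3806 normalized counts in the other 9 libraries and to 764, 371 and 991 in DF day 7 replicates 1 to 3, where miR-383 had no read. Leukocyte markers (both arms of miR-142, miR-150 and miR-223) summed to 108 to 220 in SF and 116 to 162 in DF at day 3, with miR-142-3p at 0, to 184, 705 and 209 in SF at day 7, and to 3110, 8636 and 783 in DF at day 7. Markers of theca and stroma (miR-143, miR-145, both arms of miR-199a and miR-214), the cells outside the basal lamina of the follicle, summed to 2448 to 5378 in the other 9 libraries and to 11950, 8525 and 16576 in DF at day 7. In DF between the days, 4 of 4 leukocyte markers and 5 of 5 theca and stroma markers were higher at day 7 and 2 of 3 granulosa markers were lower, where 24.4% of all miRNAs tested were higher and 15.8% lower. For SF against DF at day 7 the counts were 3 of 4 and 4 of 5 higher in DF, and 3 of 3 granulosa markers higher in SF, against 18.3% and 15.1% of all miRNAs. Some of these markers were near the lower limit of counting. The highest group means of miR-142-3p, miR-223 and miR-383 were 3.94, 5.98 and 2.94 normalized counts. With at least 10 reads in 3 of the 6 libraries, 2 leukocyte and 2 granulosa markers were left to test, and these passed in the same directions in both comparisons. The leukocyte count at day 7 was 2 of 4 with DESeq2, with no filter and without SF day 7 replicate 1 or 3 or DF day 7 replicate 1 or 2, and the granulosa count was 2 of 3 with DESeq2, with no filter and with the replicate block. Of the endothelial markers 1 of 2, miR-126-3p, was higher in DF at day 7 than at day 3. That call was lost (0 of 2) when libraries were scaled by library size alone, and without DF day 3 replicate 3 or DF day 7 replicate 3. Both erythrocyte markers tested, miR-451 and miR-486, were higher in DF than in SF at day 7, with 0 of 3 passing between the days in DF. Without DF day 7 replicate 3, 1 of 3 was higher at day 7 in DF. Epithelial markers summed to at most 21.5 in any library, and 0 of 4 passed between SF and DF at day 7 and 0 of 3 between the days in DF by edgeR or DESeq2. Without DF day 3 replicate 1, 2 of 2 tested were lower in DF at day 7 than at day 3, and with the replicate block 1 of 3.

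Within DF at day 7, the 3 replicates were ordered differently by different lists. The granulosa, leukocyte, and theca and stroma sums of this group each came mostly from a single miRNA. Means were 697 normalized counts for miR-202, 3374 for miR-142-5p and 9997 for miR-143. The next highest means in the leukocyte and the theca and stroma lists were 792 (miR-150) and 1263 (miR-199a-3p). The orders below are those of the sums, and agreement among the members of a list was not tested. The sum of both arms was 54.7, 61.5 and 81.9 normalized counts in replicates 1 to 3, against 4.04 to 9.10 in the other 9 libraries. The highest value, in replicate 3, fell in the library with the lowest leukocyte sum and the highest theca and stroma sum. Replicate 2, with the highest leukocyte sum and the lowest theca and stroma sum, had the middle value. The order of the miR-455 sum was that of the endothelial sum, which was 145 in replicate 2, 160.2 in replicate 3 and lowest in replicate 1, and the 5p arm alone had the order of the granulosa and of the theca and stroma sums. In SF at day 7, replicate 2 had the highest miR-455-3p value of its group, at 9 reads, and no read of the 5p arm. This library also had the highest leukocyte (705), theca and stroma (5326) and endothelial (220.5) sums of its group, and the lowest granulosa sum (2326). The part of these other cells in the miR-455 values was not tested.

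**Figure D5:**
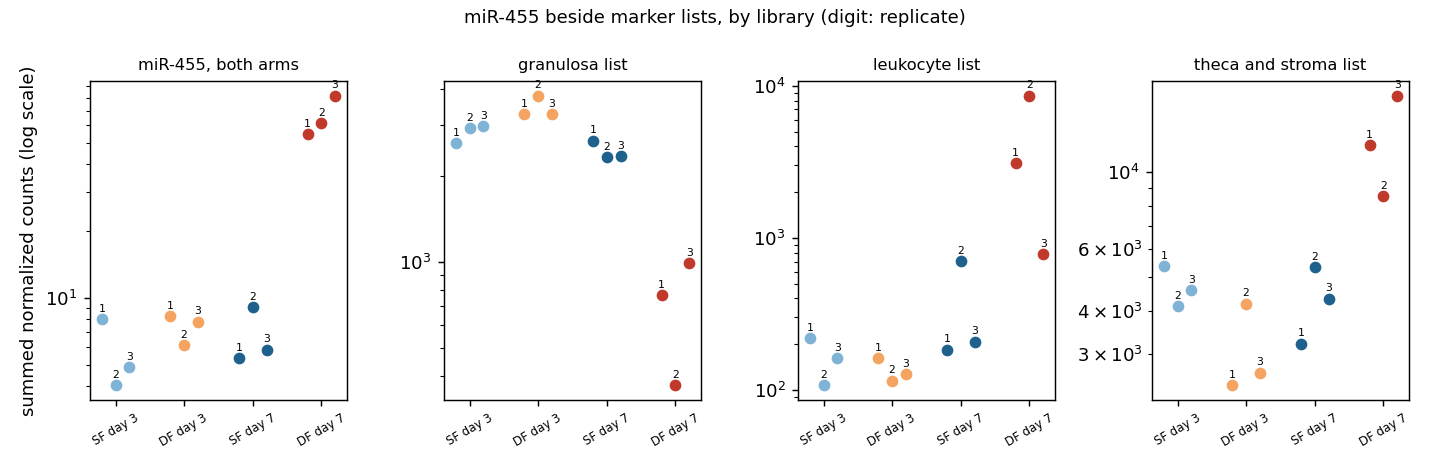
Summed normalized counts (y axes, log scale, each panel with its own range) of both miR-455 arms and of the granulosa, leukocyte, and theca and stroma marker lists in each library by group (x axis); the digit above each point is the replicate. In DF at day 7 miR-455 reaches 54.7 to 81.9 while the granulosa list falls to 371 to 991 and both other lists are at their highest.

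miRNAs known from the same tissues as miR-455 were counted alongside it. miR-140, the other well-known cartilage miRNA, was abundant, with means of 799 ± 72.4 normalized counts (SD, n = 3) in SF at day 3, 786 ± 33.3 in DF at day 3, 778 ± 66.0 in SF at day 7 and 642 ± 12.8 in DF at day 7. The DF day 7 libraries, at 630 to 656, lay somewhat below all other libraries, at 707 to 875. Groups did not overlap for 50.0% of all miRNAs tested in DF between the days, and for 45.7% between SF and DF at day 7. The log2 fold change of miR-140 in DF from day 3 to day 7 was -0.31 (SE 0.19, adjusted p = 0.207 in edgeR), and it passed in none of the 4 comparisons. Of 13 miRNAs known from brown adipocytes or hypoxia, 12 were in the files and tested in DF between the days. Of these, 7 were higher at day 7 and 1 was lower, against 24.4% higher and 15.8% lower among all miRNAs tested, and the median log2 fold change was 2.20 against 0.05 for all. miR-193b and miR-365-3p, products of clusters that promote brown fat, rose by 5.02 (SE 0.31, adjusted p = 1.89e-08 in edgeR) and 2.72 (SE 0.37, adjusted p = 3.37e-05) on the log2 scale. miR-155, which restrains brown adipocyte differentiation and is also abundant in activated leukocytes, rose by 7.23, and miR-133a and miR-27a-3p, which also restrain it, rose with miR-365-5p and miR-182. miR-196a, which induces brown adipocyte genes, was the member that was lower at day 7, from a mean of 2.99 normalized counts to no read, a call lost with DESeq2 and without replicate 1 of either DF group, where 0 of 12 were lower. miR-210, the most widely used hypoxia miRNA, had a log2 fold change of -0.43 (SE 0.31, adjusted p = 0.295 in edgeR). Between SF and DF at day 7, 6 of the 12 were higher in DF and 1, miR-196a, higher in SF, against 18.3% and 15.1% of all miRNAs. The count in DF was 5 with DESeq2, with no filter and without SF day 7 replicate 3. It was 7 with the replicate block and without SF day 7 replicate 2. With at least 10 reads in 3 of the 6 libraries it was 4 of 7 tested. The call in SF was lost (0 of 12) with DESeq2, with no filter, with the replicate block, with a prior count of 2 and without SF day 7 replicate 2 or DF day 7 replicate 1. Between SF and DF at day 3, 1 of 11 tested was higher in SF (miR-155) and 1 higher in DF (miR-182), the latter lost in the fit of all 12 libraries and without SF day 3 replicate 3 or DF day 3 replicate 2, where 0 were higher in DF. Without DF day 3 replicate 2, 2 of 11 were higher in SF. In SF between the days 1 of 11 was higher at day 7 (miR-155), with 0 of 11 without SF day 7 replicate 2 or SF day 3 replicate 1 or 2 and 3 of 11 without SF day 7 replicate 1. The list was chosen with results of these data known and is not independent evidence of a direction. The 7 that rose did so, like miR-455, in the 3 libraries in which leukocyte and theca markers were high and granulosa markers low, and the part of those cells in their values was not tested.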

How the data were processed

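Small RNA libraries were made from miRNA-enriched total RNA with the Illumina TruSeq protocol and sequenced as single reads. Base calling used CASAVA 1.8.0, with FastQC and cutadapt for quality control and trimming (tools as in the submitters' processing notes); reads below a quality of 18 were removed, and miRDeep2 assigned reads to miRBase miRNAs on the bovine UMD genome, per the study's methods. The authors deposited raw read counts per mature miRNA and precursor for each of the 12 libraries, with no normalization; gel selection, adapter ligation and mapping of short reads can favour some arms over others in every library alike. Mature sequences and coordinates are not analysed here.

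Groups came from the source labels. Names listed with several precursors were used once. miRNAs seen (1 read or more) in no fewer than 2 of the 3 replicates of either group were tested with edgeR 4.0.16 (quasi-likelihood F test, median-of-ratios factors, prior count 0.125, R 4.3.3) on the 6 libraries of each comparison and adjusted by Benjamini-Hochberg. DESeq2 1.42.0 gave the size factors for normalized counts and served as an alternative. Arm balance, log2 of the arm ratio with 0.5 added, was tested in limma 3.58.1 over hairpins with a mean of at least 10 reads, of which at least 1 on the lesser arm. The code was tested on simulated data. The miRNAs named are the 2 arms, the 5 most alike, hairpins chosen by difference or reads, and marker, cartilage, brown adipocyte and hypoxia lists; members and lists were chosen with earlier results of these data known. Alternatives covered normalization, filters, prior count, pseudocount, weights, a replicate block and leaving out each library. Depth was 160418 to 405129 reads per library, and exact binomial and count-ratio intervals cover counting error only, while those from edgeR and limma rest on the spread between libraries.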

Additional observations from a re-analysis of the deposited data

How the results depend on the processing

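Of 210 alternative values for the arms and their balance, 201 kept their direction and their side of the threshold or, where no test was made, moved by less than the replicate spread. The exceptions follow; the cause was not tested. With a prior count of 2, bta-miR-455-5p in SF over DF at day 7 was -2.35 (SE 0.54) instead of -3.60 (SE 0.82). Leaving out 1 library each, the 3p interaction ranged from -2.95 to -2.00, the latter without SF day 3 replicate 1. The arm balance at day 7 reversed to -0.19 with a pseudocount of 1 and to -0.0014 with weights, and ranged from -0.78 to 0.92 without single libraries, being below 0 without SF day 7 replicate 2 (-0.78), DF day 7 replicate 1 (-0.06) or DF day 7 replicate 3 (-0.16). That between the days in DF ranged from -0.42 to 0.72, being below 0 without DF day 3 replicate 2 (-0.42) or DF day 7 replicate 2 (-0.32).

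The number of differentially expressed miRNAs was less stable. At day 3 it was 19, but 11 with DESeq2, 12 with at least 10 reads in 3 of the 6 libraries, 8 in a fit of all 12 libraries, and 10 to 21 without single libraries, the lowest without SF day 3 replicate 1. In DF it was 145, 92 with the filter of 10 reads, and 122 to 146 without single libraries. In SF it was 2, but 5 with DESeq2, 10 with no filter, 0 with the filter of 10 reads, 1 in the fit of all 12 libraries, 10 with every entry listed, and 0 to 20 without single libraries, highest without SF day 7 replicate 1. Under the filter of 10 reads, bta-miR-455-5p was left out of every comparison and the 3p arm of those without DF at day 7.

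Replicate numbers were shared between groups without marking an animal, although SF and DF of a day came from the same set of heifers. Deviations of same-numbered libraries correlated at -0.12 to 0.01 between SF and DF at day 3, 0.08 to 0.13 at day 7, -0.09 to -0.02 between the days in DF and -0.07 to 0.14 in SF; at day 7 all 6 of 6 libraries correlated best with their own number, against 1, 0 and 3 elsewhere in this order (day 3, DF, SF). With the replicate block, 7 miRNAs instead of 2 passed between the days in SF, the log2 fold changes of SF over DF at day 7 were -3.58 for the 5p and -3.12 for the 3p arm, those between the days in DF were 2.96 and 3.11, and no call on miR-455 changed.

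Depth limits the precision: bta-miR-455-5p had at most 3 reads in 9 of 12 libraries, so its level in SF and its arm ratio outside DF at day 7 are known only coarsely.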
